A study of Homo sapiens with 9 samples.

Results

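The genes described here are 10 members of the interleukin-6 (IL-6) cytokine family and its signalling chain, chosen by name: the ligands LIF, IL6, IL11 and CLCF1, the receptors IL6ST, LIFR and OSMR, the transcription factor STAT3 and the feedback inhibitors SOCS2 and SOCS3. They were matched by symbol in the annotation of the array's probe sets, groups of short probes that each measure a transcript. Of the 10 members, 9 were measured, among 19775 genes in all, by 30 probe sets, and CLCF1 is not analysed here. Expression was measured in H295R, a human adrenocortical carcinoma cell line that makes steroid hormones, 3 h after addition of the vehicle DMSO, of 100 nM angiotensin II or of 100 nM torcetrapib, which the labels call CP-529414. Angiotensin II is a peptide hormone that stimulates aldosterone secretion, and torcetrapib inhibits the cholesteryl ester transfer protein (CETP). Each group held 3 arrays of this single cell line. Nothing in the labels ties the arrays to cultures of their own; the p-values therefore cover the spread between these 9 arrays alone, and that spread may be technical.

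Cytokines of the IL-6 family signal through a shared receptor chain, gp130, the product of IL6ST, which pairs with a partner that differs by ligand: the LIF receptor for LIF, the oncostatin M receptor for oncostatin M, and ligand-binding chains such as the IL-6 receptor for IL-6. The bound receptors activate JAK kinases, which phosphorylate STAT3, and STAT3 then switches on target genes. SOCS3 is among those targets and shuts the pathway down by binding gp130 and JAK. Adrenocortical cells are known to respond to IL-6 and LIF with altered steroid output.

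The values are log2 expression after robust multi-array averaging (RMA), so a difference of 1 is a 2-fold change. Each gene is given by its brightest probe set unless another is named, and levels of different genes are not compared. Array medians were 5.54 to 5.60, and Pearson's r between arrays of the same group, taken over genes that are no independent replicates, was 0.9964 to 0.9985. The number of arrays limits the precision. Signals under 4.87, the lowest 25% of genes, are called dim here. Of 10 measured adrenocortical markers 0 were dim, as were 2 of 4 immune, 1 of 5 fibroblast, 2 of 4 endothelial and 1 of 4 adrenal medulla markers. The mean of the adrenocortical list was 8.86 to 8.94 on the DMSO arrays, 8.9998 to 9.11 with angiotensin II and 8.90 to 8.95 with torcetrapib. With limma 3 of its genes were called with angiotensin II, the cholesterol carrier STAR (0.20), the corticotropin receptor MC2R (0.41) and the ferredoxin FDX1 (0.66), and FDX1 was called with torcetrapib (0.37). Means of the immune, fibroblast, endothelial and medulla lists spanned 4.23 to 4.52, 5.49 to 5.84, 4.59 to 4.83 and 5.55 to 5.76 over the 9 arrays, and none of their genes was called against DMSO with either treatment. The measures come from bulk RNA, in which a change in cell number of a type and a change of RNA per cell cannot be told apart.

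LIF rose with angiotensin II and SOCS3 rose with it, while the other 7 measured members did not pass the test. LIF encodes leukaemia inhibitory factor, a secreted ligand of the LIF receptor and gp130. With DMSO its log2 level was 5.69, 5.57 and 5.68 in the 3 arrays, with angiotensin II it was 8.17, 7.96 and 7.99, and with torcetrapib 5.53, 5.57 and 5.67. All 3 angiotensin II arrays stood more than 2 log2 units above the other 6, and the DMSO and torcetrapib arrays overlapped. The rise with angiotensin II was 5.25-fold (log2 change 2.39 ± 0.09 SE, adjusted p = 5.13e-11). These and all p-values below are from limma with Benjamini-Hochberg adjustment over all genes, with calls at 0.05. With torcetrapib the log2 change of LIF was -0.06 ± 0.09, with a 95% interval from -0.25 to 0.14 and adjusted p = 0.852. At the matched dose and time LIF was 5.46-fold lower with torcetrapib than with angiotensin II (log2 difference -2.45 ± 0.09, interval from -2.65 to -2.25, adjusted p = 6.68e-11). LIF has 1 probe set, so no second measure of it stands beside this value.

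SOCS3 encodes suppressor of cytokine signalling 3. Its brightest probe set, 227697_at, gave log2 levels of 5.36, 5.05 and 5.48 with DMSO, 6.83, 6.54 and 7.07 with angiotensin II, and 5.93, 5.96 and 5.72 with torcetrapib. The 3 groups did not overlap: the angiotensin II arrays were highest, the torcetrapib arrays lay between, and the DMSO arrays were lowest. With angiotensin II the rise was 2.86-fold (log2 change 1.51 ± 0.14 SE, adjusted p = 2.09e-06). The torcetrapib value was 1.49-fold above DMSO (0.58 ± 0.14, interval from 0.28 to 0.87) and did not pass, with adjusted p = 0.0606. It passed with robust variance moderation (0.0443), without dim genes (0.0476) and with array weights (0.00539). The weight of angiotensin II replicate 1 was 6.15, against 0.448 to 1.86 for the other arrays. SOCS3 was lower with torcetrapib than with angiotensin II by a log2 difference of -0.94 ± 0.14 (adjusted p = 0.000402), a call that ended with the RNA quality index described below in the model (-0.70, adjusted p = 0.285).

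The 4 SOCS3 probe sets did not give the same size of change. Of the 30 probe sets of the members, 2 rose and 0 fell with angiotensin II in a fit of all 41091 single-symbol probe sets, where 3.63% were called, 2.17% higher and 1.46% lower. With torcetrapib 1 rose and 0 fell, where 1.11% were called, 0.849% higher and 0.263% lower. Between the treatments 5 were higher and 3 lower with torcetrapib, where 11.6% were called, 7.22% higher and 4.37% lower. In that fit the log2 change with angiotensin II was 1.51 for 227697_at (adjusted p = 3.86e-05), 0.39 for 206359_at (adjusted p = 0.0605), 0.11 for 206360_s_at and 0.03 for 214105_at. The second of these read 5.74, 5.67 and 5.52 with DMSO, 6.15, 5.87 and 6.06 with angiotensin II and 5.56, 5.60 and 5.67 with torcetrapib. Its angiotensin II arrays lay above the other 6, and it passed in that comparison only when angiotensin II replicate 2 was left out (adjusted p = 0.0307). It was lower with torcetrapib than with angiotensin II (-0.42, adjusted p = 0.0191), a call that ended without angiotensin II replicate 1 or torcetrapib replicate 1 or 2 (adjusted p from 0.0635 to 0.0879). The mean of all 4 probe sets changed by 0.51 with angiotensin II and was still called.

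**Figure D1:**
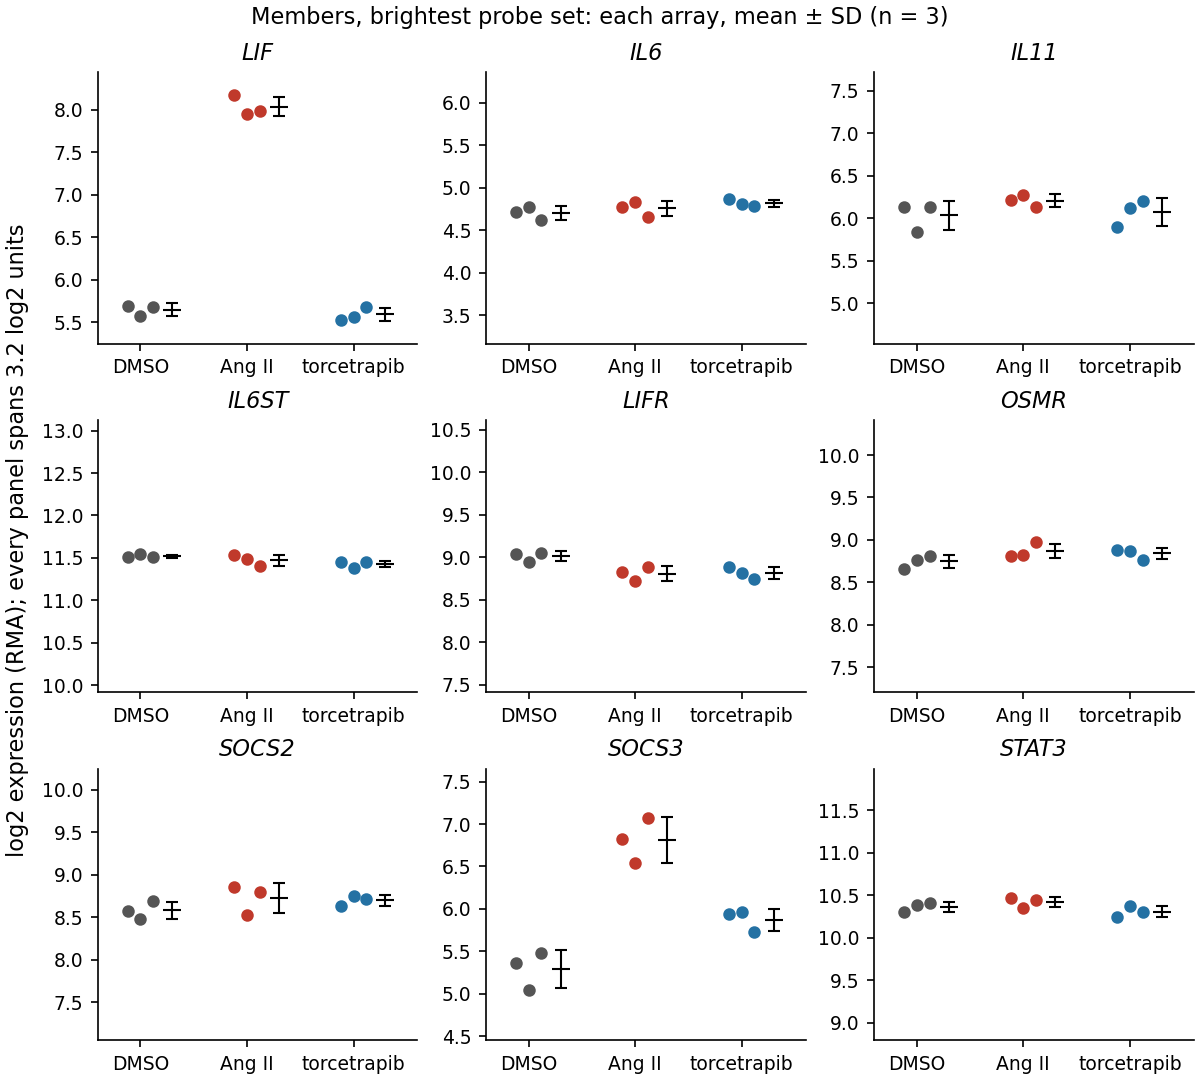
Log2 expression (vertical axis, each panel spanning 3.2 log2 units) of the 9 measured members on the 9 arrays, by treatment. Points are single arrays and the black bars give the mean ± SD of the 3 arrays of a group; LIF stands apart with angiotensin II (8.04 against 5.65 with DMSO), SOCS3 runs from 5.30 with DMSO through 5.87 with torcetrapib to 6.81 with angiotensin II, and the other 7 stay within 0.21 of their DMSO mean.

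**Figure D2:**
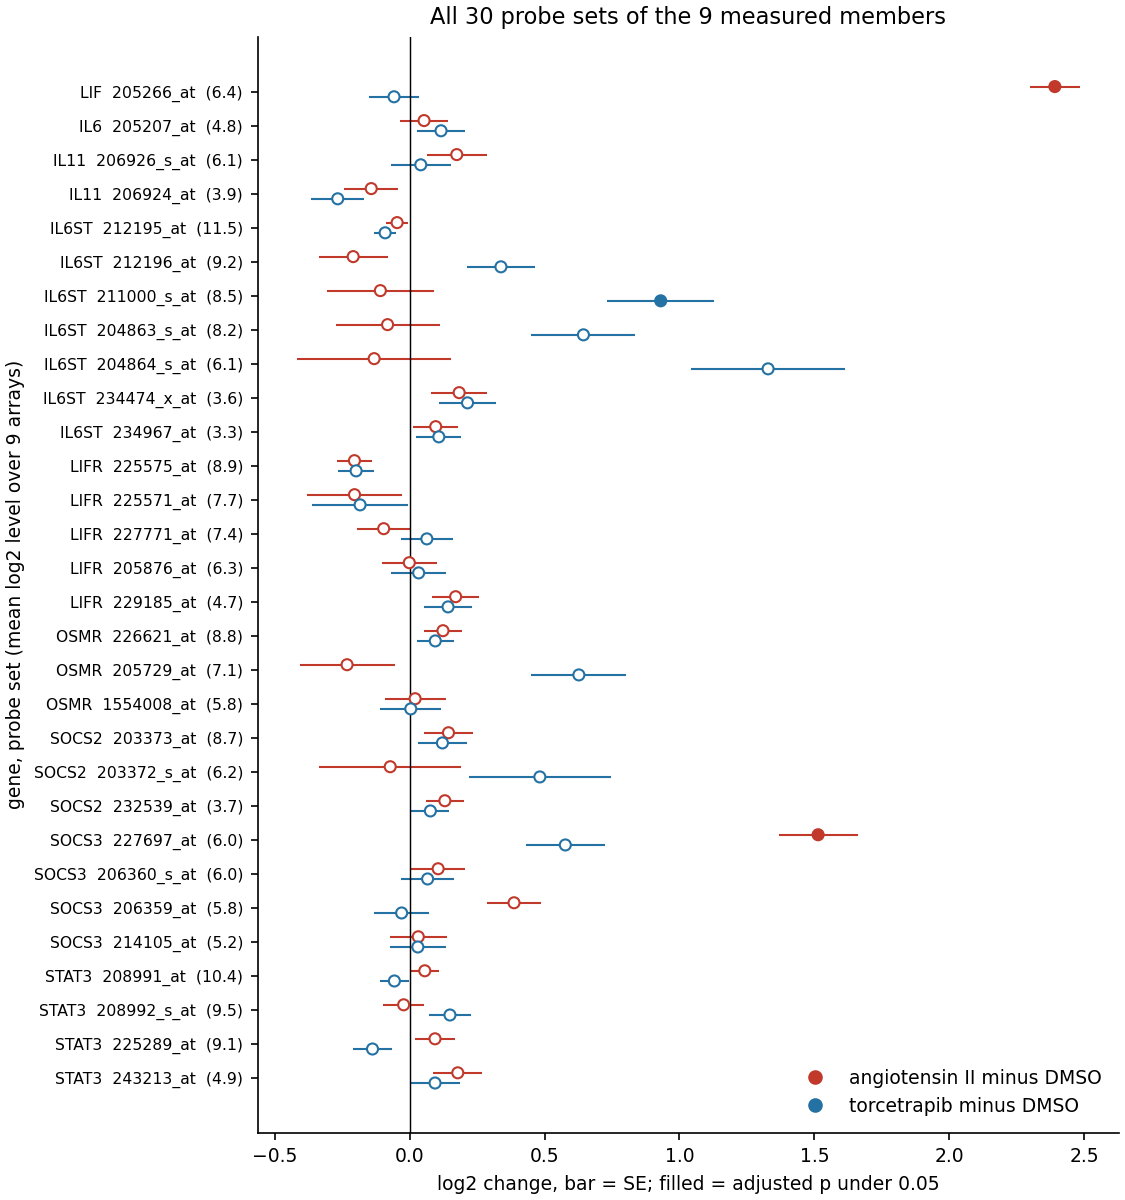
Log2 change against DMSO (horizontal axis) with its SE for each of the 30 probe sets of the 9 measured members (vertical axis, with the mean level over 9 arrays in parentheses), red for angiotensin II and blue for torcetrapib, filled where the adjusted p was under 0.05. With angiotensin II the filled points are LIF and SOCS3 227697_at, and with torcetrapib the filled point is IL6ST 211000_s_at at 0.93.

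Over the list, 2 of 9 members rose and 0 fell with angiotensin II, where 6.12% of all genes were called, 3.36% higher and 2.76% lower, and 3 passed an unadjusted p of 0.05, as did 16.5% of all genes. The median log2 change of the 9 was 0.12, against 0.01 over all genes. Because the members were chosen with earlier results of these data known, their counts and medians are described here and not tested. With torcetrapib 0 of 9 were called, where 1.16% of all genes were, 0.592% higher and 0.566% lower (limma, 3 at an unadjusted p of 0.05, as were 13.3% of all genes), and the median was 0.04 against -0.03 over all genes. Between the treatments 2 of 9, LIF and SOCS3, were lower with torcetrapib, where 11.3% of all genes were called, 4.61% higher and 6.68% lower. Groups that did not overlap were found for 3 members with angiotensin II, for 4 with torcetrapib and for 2 between the treatments, where 17.6%, 16.5% and 28.6% of all genes showed the same. Both treatments were compared with the same DMSO arrays.

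IL6 itself, the founding cytokine, was dim, at a mean of 4.76. Its log2 levels were 4.71, 4.78 and 4.61 with DMSO, 4.78, 4.84 and 4.65 with angiotensin II and 4.86, 4.81 and 4.78 with torcetrapib. The DMSO and angiotensin II arrays overlapped, and the torcetrapib arrays lay just above DMSO. The log2 change was 0.05 ± 0.09 (interval from -0.14 to 0.24, adjusted p = 0.865) with angiotensin II and 0.12 ± 0.09 (interval from -0.07 to 0.31, adjusted p = 0.651) with torcetrapib. IL11, a gp130 ligand best known from bone and stromal cells, read 6.13, 5.84 and 6.13 with DMSO, 6.22, 6.28 and 6.13 with angiotensin II and 5.89, 6.13 and 6.20 with torcetrapib. Those 3 groups overlapped. Its change was 0.17 ± 0.11 with angiotensin II (adjusted p = 0.499) and 0.04 ± 0.11 with torcetrapib (adjusted p = 0.925), and its other probe set, at a mean of 3.91, gave -0.14 and -0.27.

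A window before a transcription start is shown for SOCS3, which rose with angiotensin II, and for IL6 and IL11, ligands that were not called. The 250 bases before the start were read 5′ to 3′ from RefSeq's GRCh38.p14 promoter table, in which 7 of the 10 named members matched. LIF, CLCF1 and SOCS2 had no window there. Capitals mark matches, on either strand, to 5 motifs: the STAT site TTCNNNGAA, the cAMP response element TGACGTCA, its core TGACG, which the full element also contains, the AP-1 site TGANTCA and the NR4A monomer site AAAGGTCA.
SOCS3, chr17:78360926-78361175, minus strand: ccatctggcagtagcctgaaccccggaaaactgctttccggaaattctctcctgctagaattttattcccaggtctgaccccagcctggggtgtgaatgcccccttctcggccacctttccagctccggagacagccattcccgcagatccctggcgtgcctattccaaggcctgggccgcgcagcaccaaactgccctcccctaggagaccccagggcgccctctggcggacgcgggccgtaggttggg
IL6, chr7:22726950-22727199, plus strand: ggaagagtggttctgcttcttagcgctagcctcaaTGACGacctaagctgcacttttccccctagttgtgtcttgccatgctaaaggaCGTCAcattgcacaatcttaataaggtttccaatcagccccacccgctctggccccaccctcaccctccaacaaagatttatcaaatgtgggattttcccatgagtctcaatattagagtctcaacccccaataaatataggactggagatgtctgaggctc
IL11, chr19:55370464-55370713, minus strand: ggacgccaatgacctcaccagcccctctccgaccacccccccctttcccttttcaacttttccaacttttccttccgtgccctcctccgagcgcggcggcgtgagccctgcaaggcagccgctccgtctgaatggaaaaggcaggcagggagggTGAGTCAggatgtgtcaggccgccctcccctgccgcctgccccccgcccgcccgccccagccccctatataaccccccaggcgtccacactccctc

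The IL6 window held the core TGACG at 2 places, starting 215 and 162 bases before the start, the second on the opposite strand. The IL11 window held an AP-1 match 96 bases before the start, and the SOCS3 window printed above held none of the 5 motifs. Another SOCS3 window, not printed, held none either. Among the other windows not printed, 1 of LIFR held a STAT match 165 bases before its start, another 182 bases before, and a further one none. The STAT3 window held TGACG 116 bases before the start, and the IL6ST and OSMR windows held none of the motifs. Over all 35116 promoter windows cut to the same 250 bases, 21.2% held TGACG, 1.65% the full element, 6.57% the STAT site, 6.57% the AP-1 site and 1.05% the NR4A site. A match is a run of letters and says nothing about what binds there.

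The receptors showed no called change by their brightest probe sets. IL6ST, the gp130 chain, read 11.51, 11.54 and 11.51 with DMSO, 11.53, 11.49 and 11.40 with angiotensin II and 11.45, 11.39 and 11.45 with torcetrapib on probe set 212195_at. Its torcetrapib arrays lay below the DMSO arrays, with a log2 change of -0.09 ± 0.04 (adjusted p = 0.331), and the angiotensin II change was -0.05 ± 0.04 (adjusted p = 0.659). LIFR, the chain that binds LIF, read 9.04, 8.95 and 9.05 with DMSO, 8.82, 8.71 and 8.88 with angiotensin II and 8.88, 8.81 and 8.75 with torcetrapib. Every treated array lay below every DMSO array, yet neither change passed: -0.21 ± 0.06 (adjusted p = 0.0805) with angiotensin II and -0.20 ± 0.06 (adjusted p = 0.173) with torcetrapib. Quantile normalisation applied again called both (adjusted p = 0.0193 and 0.0359), as did array weights (0.00918 and 0.0478). The other 4 LIFR probe sets gave changes from -0.20 to 0.17 with angiotensin II and from -0.18 to 0.14 with torcetrapib. Probe set 225571_at was called lower with both treatments when DMSO replicate 2 was left out (log2 changes -0.48 and -0.45, adjusted p = 0.0127 and 0.0122). OSMR, the oncostatin M receptor chain, read 8.66, 8.76 and 8.81 with DMSO, 8.81, 8.82 and 8.97 with angiotensin II and 8.88, 8.87 and 8.77 with torcetrapib. Its changes were 0.12 ± 0.07 (adjusted p = 0.402) and 0.09 ± 0.07 (adjusted p = 0.606).

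The dimmer probe sets of IL6ST and OSMR had higher means with torcetrapib than with DMSO, by unlike amounts. The smallest changes were 0.21 and 0.11 for IL6ST 234474_x_at and 234967_at, both dim, and 0.0037 for OSMR 1554008_at, with no call. IL6ST 211000_s_at read 7.97, 8.58 and 7.99 with DMSO, 8.28, 7.57 and 8.35 with angiotensin II and 9.17, 8.94 and 9.21 with torcetrapib. All torcetrapib arrays were above the other 6, and DMSO replicate 2 was the highest of those 6. The log2 change with torcetrapib was 0.93 ± 0.20 and passed narrowly in the fit of all probe sets (adjusted p = 0.0488). The call ended when DMSO replicate 1, DMSO replicate 3 or any of torcetrapib replicates 1, 2 and 3 was left out (adjusted p from 0.128 to 0.195). Probe set 204864_s_at gave 1.33 ± 0.29 (adjusted p = 0.0504), 204863_s_at 0.64 ± 0.19 (adjusted p = 0.141) and 212196_at 0.34 ± 0.13 (adjusted p = 0.244), and all 3 were called without DMSO replicate 2 (1.74, 0.80 and 0.51, adjusted p = 0.000251, 0.0264 and 0.00558). OSMR 205729_at gave 0.63 ± 0.18 (adjusted p = 0.120), and 0.84 without DMSO replicate 2 (adjusted p = 0.00405). Without DMSO replicate 1 it was called lower with angiotensin II (-0.48, adjusted p = 0.0422). Against angiotensin II these 4 IL6ST probe sets were higher with torcetrapib by 0.55 to 1.46 and OSMR 205729_at by 0.86 (adjusted p from 0.00577 to 0.0291). Some of these calls rested on single arrays: 204863_s_at lost its call without angiotensin II replicate 2 or any torcetrapib array (adjusted p from 0.0680 to 0.102), and 212196_at without angiotensin II replicate 2 or torcetrapib replicate 2 or 3 (0.0549 to 0.0670).

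A sign of RNA quality moved with these probe sets. The index compares the ends of a pair of control transcripts: for ACTB and for GAPDH the 3′ control's log2 value was subtracted from that of the 5′ control, and the mean of both was taken. It was -0.72, -0.28 and -0.50 in the DMSO arrays, -0.62, -0.63 and -0.60 with angiotensin II and -0.28, -0.22 and -0.23 with torcetrapib. The torcetrapib arrays and DMSO replicate 2 were the 4 highest, the same 4 arrays that read highest on IL6ST 204864_s_at and 212196_at and on OSMR 205729_at. An exact two-sided permutation test of the index gave p = 0.1 for torcetrapib against each other group, the smallest p that 3 against 3 arrays allow, and 0.5 between the other groups. With the index as a covariate in the fit of all probe sets, an alternative chosen after the data were seen, the torcetrapib change was 0.57 for 211000_s_at, 0.43 for 204863_s_at, 0.41 for 204864_s_at, -0.05 for 212196_at and 0.08 for OSMR 205729_at, and none was called (lowest adjusted p = 0.679). The calls of these 5 probe sets between treatments ended as well, with differences of 0.51, 0.42, 0.12, -0.02 and 0.07 in the same order (adjusted p from 0.714 to 0.990). The index moved with treatment, so its share in these changes and that of torcetrapib cannot be told apart. The LIF change with angiotensin II was 2.36 and that of SOCS3 227697_at 1.44 in the same fit.

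**Figure D3:**
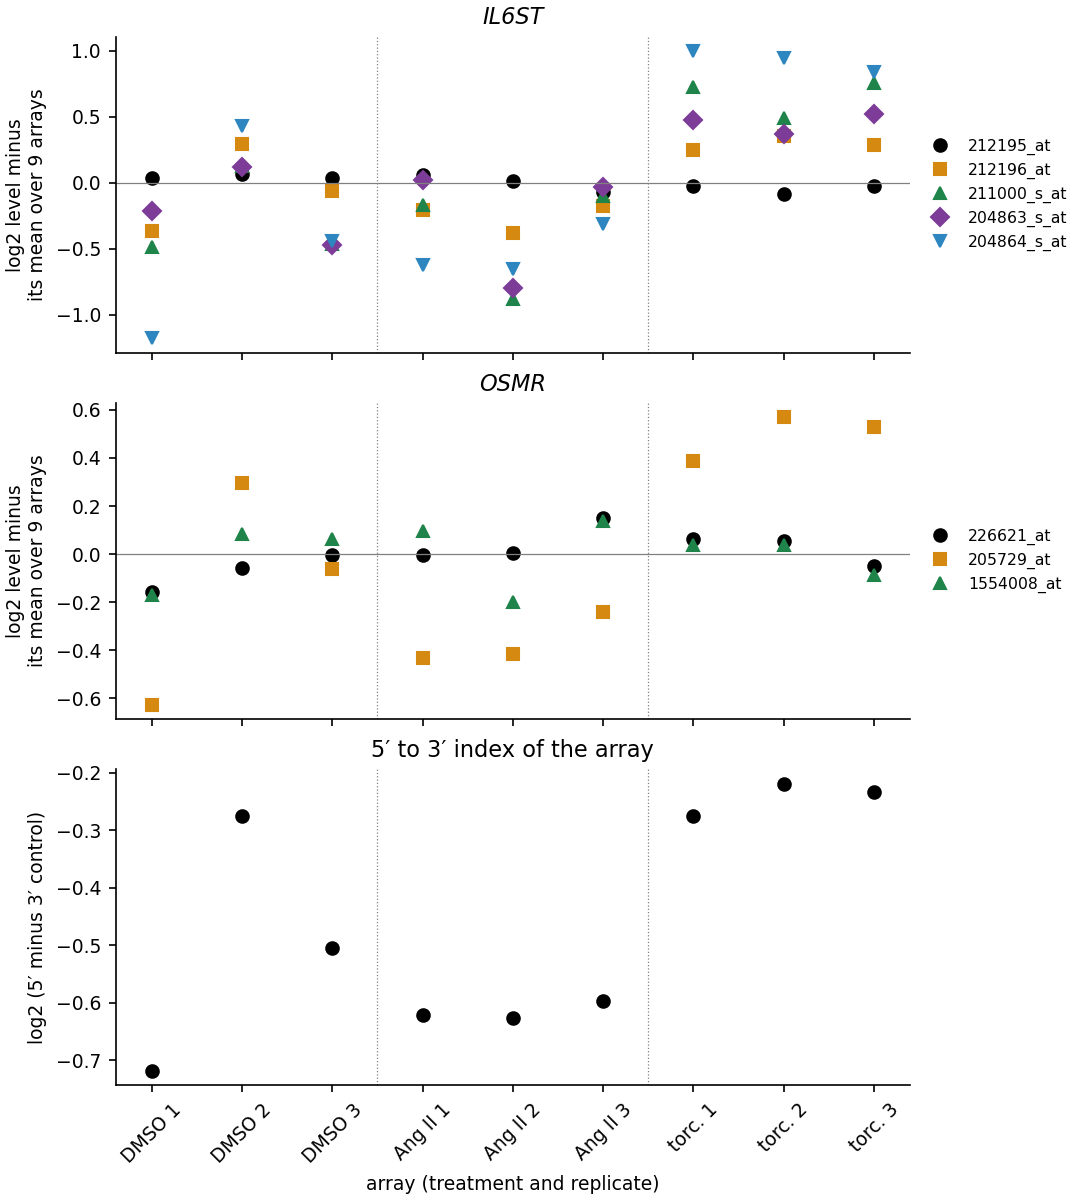
Log2 level of IL6ST probe sets (top) and OSMR probe sets (middle) on each array, minus the probe set's mean over 9 arrays, and the 5′ to 3′ index of the same array (bottom, log2). DMSO replicate 2 at -0.28 and the torcetrapib arrays (-0.28 to -0.22) have the highest index and the highest readings of 204864_s_at, 212196_at and 205729_at, while IL6ST 212195_at and OSMR 226621_at move little.

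STAT3, the transcription factor downstream of gp130, was not called. It read 10.30, 10.38 and 10.41 with DMSO, 10.46, 10.35 and 10.45 with angiotensin II and 10.24, 10.38 and 10.31 with torcetrapib, and the groups overlapped. Its changes were 0.06 ± 0.05 (interval from -0.05 to 0.17, adjusted p = 0.700) and -0.06 ± 0.05 (interval from -0.17 to 0.05, adjusted p = 0.709), and its 4 probe sets spanned -0.02 to 0.18 with angiotensin II and -0.14 to 0.15 with torcetrapib. The arrays measure STAT3 transcript and not the phosphorylated protein. SOCS2, a feedback inhibitor best known from growth hormone signalling, read 8.57, 8.48 and 8.69 with DMSO, 8.85, 8.52 and 8.80 with angiotensin II and 8.63, 8.76 and 8.72 with torcetrapib. The groups overlapped, and the changes were 0.14 ± 0.08 (interval from -0.04 to 0.32, adjusted p = 0.460) and 0.12 ± 0.08 (interval from -0.06 to 0.30, adjusted p = 0.604). Array weights called it with angiotensin II (0.25, adjusted p = 0.0167). Its other probe sets were not called: 203372_s_at gave -0.07 with angiotensin II and 0.48 with torcetrapib, and 232539_at, a dim one, gave 0.13 and 0.08.

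Other ligands and receptors of the family were measured for 10 of 12 listed genes. With angiotensin II, where 3.36% of all genes rose and 2.76% fell, 0 of the 10 fell and 1 rose. That gene was IL6R, the ligand-binding IL-6 receptor chain, at 5.22, 4.91 and 5.32 with DMSO, 6.87, 6.41 and 6.56 with angiotensin II and 5.19, 5.43 and 5.27 with torcetrapib. The angiotensin II arrays stood above the other 6, which overlapped. The change was 1.46 ± 0.13 (2.75-fold, adjusted p = 1.71e-06) with angiotensin II and 0.14 ± 0.13 (adjusted p = 0.715) with torcetrapib. A second probe set, 205945_at, at a dim mean of 3.92, rose by 1.30 (adjusted p = 0.000756 in the fit of all probe sets), and the third, 217489_s_at at 3.39, gave 0.05. With torcetrapib 0 of the 10 were called, where 1.16% of all genes were (limma, 1 at an unadjusted p of 0.05, as were 13.3% of all genes). Between treatments, where 6.68% of all genes were lower with torcetrapib and 4.61% higher, 2 of 10 were lower. These were IL6R, by a log2 difference of -1.32, and the IL-11 receptor IL11RA, by -0.42. The IL11RA call ended with the index in the model (-0.40, adjusted p = 0.485), when its probe sets were averaged (-0.30, adjusted p = 0.0693) and without torcetrapib replicate 2 (-0.34, adjusted p = 0.0583). The list median was 0.05 with angiotensin II and -0.03 with torcetrapib, against 0.01 and -0.03 over all genes.

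Of 13 measured JAK and STAT signal transducers, of 15 listed, 0 were called with either treatment against DMSO, where 6.12% and 1.16% of all genes were. At an unadjusted p of 0.05 (limma) 2 and 5 passed, against 16.5% and 13.3% of all genes. The changes of the 13 ran from -0.14 to 0.25 with angiotensin II and from -0.26 to 0.29 with torcetrapib. Between treatments the kinase JAK2 was higher with torcetrapib (0.40, adjusted p = 0.0194), and the transcription factors STAT5B (-0.41, adjusted p = 0.00279) and STAT6 (-0.34, adjusted p = 0.0321) were lower. With the index in the model 0 of 13 were called in that comparison, and other probe sets of STAT5B gave 0.01 to 0.22. The JAK2 call ended without angiotensin II replicate 2 or torcetrapib replicate 2 (adjusted p = 0.0762 and 0.102), without _x_at and _s_at probe sets (0.17, adjusted p = 0.475) and when probe sets were averaged (0.18, adjusted p = 0.172). The other JAK2 probe sets, both dim, gave 0.17 and -0.03. The STAT6 call ended without angiotensin II replicate 1, 2 or 3 or torcetrapib replicate 3 (adjusted p from 0.0609 to 0.151). It ended as well without the trend, with centring and over all probe sets (adjusted p from 0.0506 to 0.0775). The other STAT6 probe set, 201332_s_at, gave -0.04, and the mean of probe sets was not called (-0.19, adjusted p = 0.169). Without DMSO replicate 2, STAT5B was called lower with torcetrapib than with DMSO (-0.30, adjusted p = 0.0411).

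Negative regulators of the pathway were measured for 14 of 15 listed genes. With angiotensin II 3 rose and 1 fell, where 3.36% of all genes rose and 2.76% fell. SOCS1, which inhibits JAK kinases directly, rose most: it read 8.21, 7.85 and 8.23 with DMSO, 10.05, 10.09 and 10.04 with angiotensin II and 8.84, 8.81 and 8.80 with torcetrapib. The 3 groups did not overlap. Its change was 1.96 ± 0.08 (3.90-fold, adjusted p = 1.58e-10) with angiotensin II and 0.72 ± 0.08 (1.65-fold, adjusted p = 0.000242) with torcetrapib, and it was lower with torcetrapib than with angiotensin II by a log2 difference of -1.24 (adjusted p = 6.94e-08). A second SOCS1 probe set, 209999_x_at, rose by 1.43 and 0.70. The other two, at means of 5.82 and 3.59, gave 0.14 and 0.15 with angiotensin II and -0.18 and -0.02 with torcetrapib, and the mean over probe sets was not called with torcetrapib (0.31, adjusted p = 0.0771). With the index in the model the torcetrapib change of SOCS1 was 0.93 (adjusted p = 3.91e-05).

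The smaller changes in that list were those of SOCS7 (0.32 ± 0.05, adjusted p = 0.000445), of PTPN1, a tyrosine phosphatase that acts on JAK2 and TYK2 (0.34 ± 0.09, adjusted p = 0.0350), and of SOCS4 (-0.17 ± 0.04, adjusted p = 0.0252). PTPN1 lost its call when DMSO replicate 2 or angiotensin II replicate 1, 2 or 3 was left out (adjusted p from 0.0625 to 0.145), and the change was 0.21 without DMSO replicate 2. Its call also ended when probe sets were averaged (0.10, adjusted p = 0.549), with the index in the model (0.25, adjusted p = 0.108), and without the trend, with centring, over all probe sets and with only the groups compared (adjusted p from 0.0761 to 0.111). SOCS4 lost its call without DMSO replicate 1, DMSO replicate 3, or either of angiotensin II replicates 1 and 2 (adjusted p from 0.0516 to 0.0962). It lost the call too without the trend, with centring and with only the groups compared (adjusted p from 0.0805 to 0.113), and the mean of probe sets gave 0.02. With torcetrapib SOCS1 was the single call of the 14, where 1.16% of all genes were called. Between treatments, where 4.61% of all genes were higher with torcetrapib and 6.68% lower, PIAS1, an inhibitor of activated STATs, was higher (0.18). SOCS1, SOCS7 (-0.27), PTPN1 (-0.31) and the phosphatase PTPN2 (-0.20) were lower, of which SOCS1 was called with the index in the model. PIAS1 and PTPN1 lost this call when any of the 6 arrays compared was left out, and PTPN2 when any but angiotensin II replicate 2 was (adjusted p from 0.0508 to 0.160). Other probe sets of PTPN1 and PTPN2 went the other way in the fit of all probe sets. PTPN1 217686_at was higher with torcetrapib (0.35, adjusted p = 0.0416), as was PTPN2 204935_at, a dim one (0.41, adjusted p = 0.0103). In that fit the brightest PTPN1 probe set was not called (-0.31, adjusted p = 0.0614). Without DMSO replicate 3, PIAS1 was called lower with angiotensin II than with DMSO (-0.21, adjusted p = 0.0478). The list median was 0.09 with angiotensin II and 0.03 with torcetrapib.

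Genes known as STAT3 targets were measured for 24 of 25, and 9 rose and 0 fell with angiotensin II, while 3 rose and 0 fell with torcetrapib. Of all genes, 3.36% rose and 2.76% fell with angiotensin II, and 0.592% rose and 0.566% fell with torcetrapib. Several of the listed targets, FOS and JUNB above all, are also switched on by many other stimuli. The rise of FOS in these data was already known when the list was drawn up. PIM1, a survival kinase that is a classical STAT3 target, read 7.98, 7.998 and 8.03 with DMSO, 9.41, 9.20 and 9.52 with angiotensin II and 7.79, 8.002 and 7.82 with torcetrapib. Its angiotensin II arrays stood above the rest, and the change was 1.38 ± 0.08 (adjusted p = 1.45e-08), against -0.13 ± 0.08 (adjusted p = 0.551) with torcetrapib. IER3, an early response gene, rose by 2.03 ± 0.11 with angiotensin II (adjusted p = 5.28e-09) and gave 0.09 ± 0.11 with torcetrapib (adjusted p = 0.810). FOS rose by 2.82 and 1.04, JUNB by 1.45 and 0.29 and the survival factor MCL1 by 1.00 and 0.14 with angiotensin II and torcetrapib. FOS carried the same value, 7.59, on all 3 torcetrapib arrays, so its spread there is not measured. JUNB was not called with torcetrapib with the index in the model (0.31, adjusted p = 0.0542) or without the trend (0.29, adjusted p = 0.0716). The MCL1 call with torcetrapib ended when DMSO replicate 1 or 3 or torcetrapib replicate 1, 2 or 3 was left out (adjusted p from 0.0950 to 0.189). It ended as well without the trend, with centring, with the index in the model and without _x_at and _s_at probe sets (adjusted p from 0.235 to 0.535). With the mean of probe sets and with only the groups compared MCL1 was not called either (adjusted p = 0.0796 and 0.06215). In the fit of all probe sets its brightest, 200797_s_at, was not called with torcetrapib (0.14, adjusted p = 0.0560). There 200798_x_at was called (0.34, adjusted p = 0.0263) and the remaining MCL1 probe sets were not.

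VEGFA, an angiogenic factor, rose by 0.53 ± 0.05 with angiotensin II, the transcriptional repressor BCL6 by 0.45 ± 0.06 and the bZIP factor CEBPB by 0.33 ± 0.06, and none of these was called with torcetrapib (-0.09, 0.07 and -0.23). In the fit of all probe sets VEGFA 212171_x_at rose by 0.58 with angiotensin II. VEGFA 211527_x_at and 210513_s_at gave 0.30 and 0.18 (adjusted p = 0.513 and 0.770), and 0.54 and 0.45 with the index in the model (adjusted p = 0.000890 and 0.0186). Between treatments they gave 0.20 and 0.40 without a call. With torcetrapib the adjusted p of CEBPB was 0.0606, and without DMSO replicate 2 it was called lower (-0.29, adjusted p = 0.00521). It was called lower too with robust moderation, without dim genes, with quantile normalisation again and with array weights (adjusted p from 0.00517 to 0.04785). CEBPD rose by 0.42 ± 0.10 with angiotensin II (adjusted p = 0.0131) and gave 0.36 with torcetrapib (adjusted p = 0.0842). The first call ended without angiotensin II replicate 1 or 3, without the trend and with only the groups compared (adjusted p from 0.0560 to 0.0662). It ended too without _x_at and _s_at probe sets (0.24, adjusted p = 0.115). Quantile normalisation again and array weights called CEBPD with torcetrapib (adjusted p = 0.0417 and 0.0212). The BCL6 difference between treatments was -0.39 and lost its call with the index in the model (-0.27, adjusted p = 0.438). Between treatments 10 of 24 were lower with torcetrapib and 0 higher, where 6.68% of all genes were lower and 4.61% higher. Of the 10, HIF1A and IRF1 also lost the call with the index in the model (adjusted p = 0.5185 and 0.651). HIF1A lost it without angiotensin II replicate 1 or 2 or torcetrapib replicate 1 or 2. IRF1 lost it without angiotensin II replicate 3 or torcetrapib replicate 1 or 3. When probe sets were averaged, VEGFA (-0.13, adjusted p = 0.472), BCL6 (-0.16, 0.138) and IRF1 (-0.18, 0.115) were not called. The list median was 0.08 with angiotensin II and -0.02 with torcetrapib, against 0.01 and -0.03 over all genes.

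**Figure D4:**
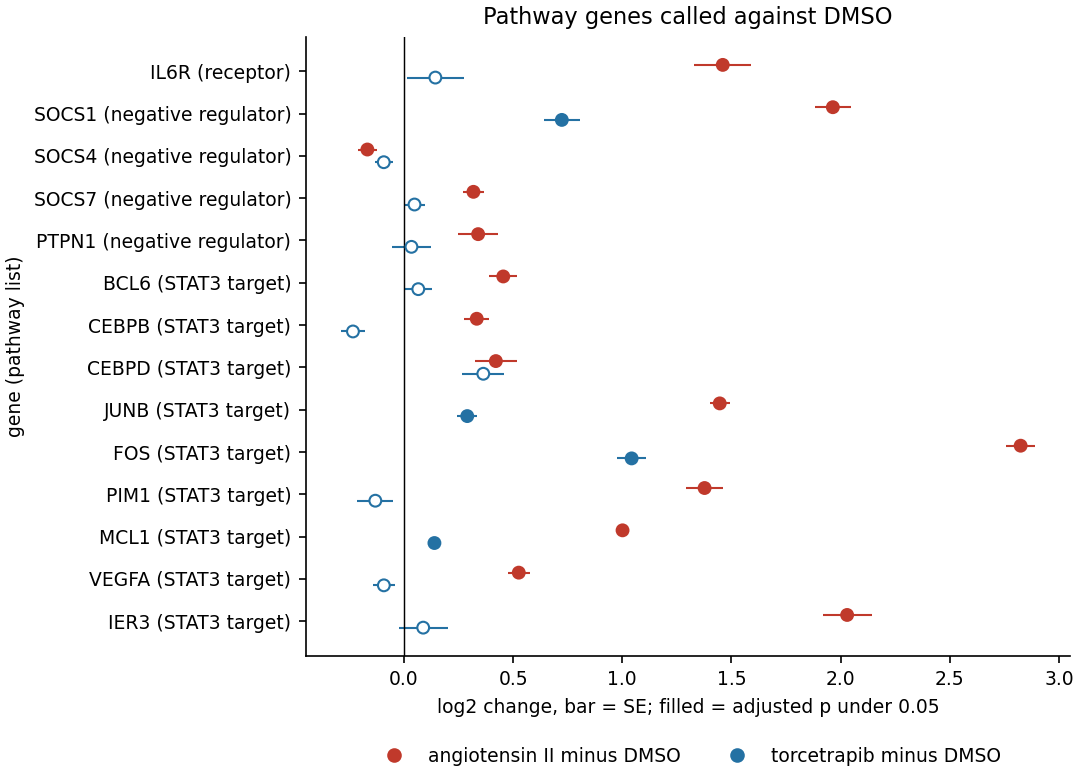
Log2 change against DMSO (horizontal axis) with its SE for the 14 genes of the pathway lists (vertical axis) that were called with angiotensin II (red) or torcetrapib (blue), filled where the adjusted p was under 0.05. IL6R, PIM1 and IER3 lie at 1.38 to 2.03 with angiotensin II and at -0.13 to 0.14 with torcetrapib, whereas SOCS1, JUNB, FOS and MCL1 were called with both. The torcetrapib calls of SOCS1, JUNB and MCL1 ended under some alternatives.

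The genes whose values ran most like LIF over the 9 arrays were NID1, a basement membrane protein (Pearson r = 0.9982), the kinase PIM3 (0.9970), the growth factor HBEGF (0.9967), the clock repressor BHLHE40 (0.9966) and the actin regulator RFLNB (0.9958). Their log2 changes with angiotensin II were 1.18, 1.08, 2.58, 0.90 and 0.65, and with torcetrapib between -0.01 and 0.13. For SOCS3 they were CYP19A1, the aromatase (r = 0.9943), the secreted hormone STC1 (0.9922), the neurotrophin BDNF (0.9902), TENT5C (0.9893) and ATP2B1-AS1 (0.9883). Their changes were 0.86, 0.75, 1.47, 1.35 and 0.80 with angiotensin II and from 0.25 to 0.67 with torcetrapib, where BDNF (adjusted p = 0.00208) and TENT5C (adjusted p = 0.0272) were called. These correlations describe 9 arrays in 3 groups, in which the groups set most of the spread.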

How the data were processed

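Per the submitters' processing notes, the authors obtained the log2 values with RMA; no source used here names its software or version. The labels' protocols name a QIAGEN kit for RNA and Affymetrix's standard labelling. No further normalisation was applied. Probe sets with 1 gene symbol (41091 of 54675) were used, and a gene was taken from its brightest over 9 arrays. Symbols were updated through gene IDs, which matched for 19735 of 19775 genes.

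Group means were fitted with limma 3.58.1 in R 4.3.3 on all 9 arrays, with 6 residual degrees of freedom and an intensity trend in the variance. The fit was tested on simulated data. P-values are two-sided, intervals are 95%, and ± after a change is SE. Members and lists were chosen with earlier results of these data known. Named genes are the members with all probe sets, up to 8 called genes a list and the 5 genes most correlated with LIF and with SOCS3. HIF1A, IRF1 and CEBPD were named beside these because their calls ended under alternatives. Serial numbers in the sample titles run on within each group, so order and treatment cannot be told apart.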

Additional observations from a re-analysis of the deposited data

How the results depend on the processing

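LIF and SOCS3 were called with angiotensin II under every alternative run, leave-one-out fits included, with log2 changes of 2.33 to 2.48 and 0.51 to 1.65. Array weights moved the members called from 2 to 4 with angiotensin II, from 0 to 2 with torcetrapib and from 2 to 4 between treatments, and all genes called from 1210 to 2712, 229 to 1272 and 2232 to 6216. By far the largest weight, 6.15, fell on angiotensin II replicate 1, so the weighted fit leans on that array. The index as covariate left 1 member called between treatments, and 76 and 280 of all genes with torcetrapib and between treatments. With torcetrapib, robust moderation, leaving out dim genes and quantile normalisation again each called 1 member. All genes called with torcetrapib numbered 50 without the intensity trend, 120 with arrays centred, 507 with quantile normalisation, 108 with the mean of probe sets, 136 without _x_at and _s_at probe sets, 457 over all probe sets (4762 between treatments) and 145 with only the groups compared. In the fit as reported 51.1% of the torcetrapib calls were higher, against 65.8% when centred, 33.7% with quantile normalisation, 93.4% with the index, 81.5% with the mean of probe sets, 80% without the trend and 31.3% without DMSO replicate 2. Leaving out 1 array gave 83 (torcetrapib replicate 1) to 917 (DMSO replicate 2) with torcetrapib and 1351 to 2193 between treatments. The mean of probe sets reversed SOCS4 with angiotensin II (0.0248) and, between treatments, IL6ST (0.54, called), STAT5B (0.02) and PTPN2 (0.0377). The cause was not tested. For single probe sets, the index covariate and the leave-one-out fits were chosen after seeing the data, as were all alternatives for the pathway lists. No paired analysis was possible because the serial numbers in the titles are not shared between groups. IL6 was measured at a dim signal (mean 4.76).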
